A study of Mus musculus with 39 samples.

Results

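The genes described here are 6 that encode plasma carrier proteins known as negative acute phase proteins, namely Alb, Ttr, Rbp4, Gc, Ahsg and Fetub, in mouse liver. They were chosen by name, as the probes whose RefSeq accession belongs to these genes, and each of them was measured by 1 probe, so that 6 probes of the 25903 RefSeq probes tested, and 6 genes of the 17016 named genes on the array, are followed through all 8 groups of 39 mice. The rule uses no measured value, although these genes were taken up with earlier results of the same arrays known, and all 6 probes were tested, without a filter on low values.

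The mice were male C57BL/6J, 5 to 6 weeks old and housed singly. Aggressor-exposed (AggE) mice were caged daily, for 6 hrs on each of 5 or 10 days, within the territory of a trained SJL male, which could attack them in brief bouts. The controls (Ctrl) were confined and left unfed for as long, away from any SJL male, so confinement and fasting are common to both groups. Shortly before blood and liver were collected, mice also met an SJL male behind a partition. Livers were taken 24 hrs post-5-day stressor (4 Ctrl, 5 AggE), 24 hrs post-10-day stressor (4 Ctrl, 5 AggE), 1.5 wks post-5-day stressor (4 Ctrl, 5 AggE) and 4 wks post-10-day stressor (6 Ctrl, 6 AggE). Label fields disagreed on the regimen of some arrays. For the 5 AggE arrays at 24 hrs post-5-day stressor 1 label line gave 1 day, and at 1.5 wks the titles of all 5 AggE arrays and of Ctrl replicate 4 carried a 10, where those of the other 3 Ctrl arrays carried a 5. The title of that Ctrl replicate 4 also began with HC, where the other Ctrl titles began with C. What HC stands for was not known here, so whether this mouse was another kind of control cannot be told. All were placed by the description of the tissue, which gave 5 days, so the regimen of the 1.5 wk comparison rests on the fields other than the title. Liver RNA of 1 mouse was labeled with Cy5 and hybridized on each array with a reference RNA pooled from mouse cell lines, labeled with Cy3, and levels below are log2 ratios of liver to reference.

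Hepatocytes make these proteins and secrete them into plasma. Albumin carries fatty acids, bilirubin and hormones and holds the colloid osmotic pressure; transthyretin carries thyroxine and binds the retinol-binding protein that carries retinol out of the liver; the Gc product is the vitamin D-binding protein; and the fetuins, products of Ahsg and Fetub, are inhibitors of mineral deposition and of proteases. During inflammation, cytokines turn liver synthesis toward positive acute phase proteins such as serum amyloid A, and the plasma levels of these carriers commonly decline, which is why they are called negative acute phase proteins. The comparisons below ask whether their transcripts were lower in AggE than in Ctrl livers.

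Of these genes, Ahsg and Fetub lie next to each other on chromosome 16, with 0 protein-coding genes between them, and Fetub is followed by Hrg, the histidine-rich carrier protein. Gc and Alb lie on chromosome 5 with 4 protein-coding genes between them, and Alb is followed by its paralogs Afp and Afm. The 250 bases before the annotated start of Alb and of the neighbors Ahsg and Fetub are shown because the values of these genes are compared below, in RefSeq sequence of GRCm38.p6, 5′ to 3′ in the direction of transcription. The windows are chr5:90460620-90460869 on the plus strand for Alb, chr16:22891765-22892014 on the plus strand for Ahsg and chr16:22918132-22918381 on the plus strand for the first of the annotated Fetub starts. Capitals mark matches, on either strand, to TTGCNNAA (a form of the site of C/EBP factors) and TATAAA (the TATA box). Other forms of these sites were not searched for, so an unmarked stretch may hold one.
Alb: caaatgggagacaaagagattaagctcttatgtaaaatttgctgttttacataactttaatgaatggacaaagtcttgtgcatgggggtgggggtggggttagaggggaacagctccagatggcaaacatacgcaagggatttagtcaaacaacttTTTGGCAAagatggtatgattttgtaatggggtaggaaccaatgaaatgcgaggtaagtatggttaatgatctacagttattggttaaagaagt
Ahsg: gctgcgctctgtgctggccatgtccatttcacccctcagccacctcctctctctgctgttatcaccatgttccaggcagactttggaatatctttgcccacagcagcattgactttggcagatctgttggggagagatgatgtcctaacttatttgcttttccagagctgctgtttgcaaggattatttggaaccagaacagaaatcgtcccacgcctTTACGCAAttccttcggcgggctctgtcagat
Fetub: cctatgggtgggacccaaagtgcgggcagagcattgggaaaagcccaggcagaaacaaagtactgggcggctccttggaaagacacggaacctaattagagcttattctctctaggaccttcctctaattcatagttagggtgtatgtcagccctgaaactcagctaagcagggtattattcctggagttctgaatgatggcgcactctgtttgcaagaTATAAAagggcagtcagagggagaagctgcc

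TTGCNNAA or its complement was found in the Alb window, starting 94 bases before the start, and in the Ahsg window, 32 bases before it. The Fetub window held TATAAA, 31 bases before the start. The marked matches did not overlap one another. Among 32851 windows of the same length before annotated mouse starts, 9.56% held TTGCNNAA and 12.4% held TATAAA. A match describes letters and not binding, and no factor was measured at these genes.

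The arrays differed in brightness. Of all probes, 14.9% to 43.8% were well above background in Cy5 on arrays of the first of 2 scan days, and 40.6% to 70.2% on those of the second, which held all 4 wk arrays and 1 array of each 1.5 wk group. All 9 hepatocyte marker genes measured were well above background on all 39 arrays. The arrays lay on 11 slides, and at 24 hrs AggE and Ctrl arrays shared no slide, so slide and exposure cannot be told apart there. Fewer cells of a type and less RNA per cell cannot be told apart in these bulk samples. Pairs of arrays shared at most 14.2% equal Cy5 medians, and correlated at most 0.981, so no array was a copy of another.

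At an adjusted p of 0.05 or less (limma, Benjamini-Hochberg over all RefSeq probes), 0 of the 6 carriers differed between AggE and Ctrl at any of the 4 time points. By this rule 3.69% of all probes were called 24 hrs post-5-day stressor, and with no adjustment of p the same limit took in 1 of 6 carriers (Ttr, higher) beside 17.9% of all probes. After the 10-day regimen 0.0811% of all probes were called at 24 hrs, and 0 of 6 carriers passed the unadjusted limit beside 2.92%. At 1.5 wks post-5-day stressor, 0.00% of all probes were called, and again 0 of 6 carriers passed the unadjusted limit, beside 2.39%. At 4 wks post-10-day stressor, 3.20% of all probes were called, and 1 of 6 carriers (Fetub, lower) passed the unadjusted limit beside 20.2%.

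**Figure D1:**
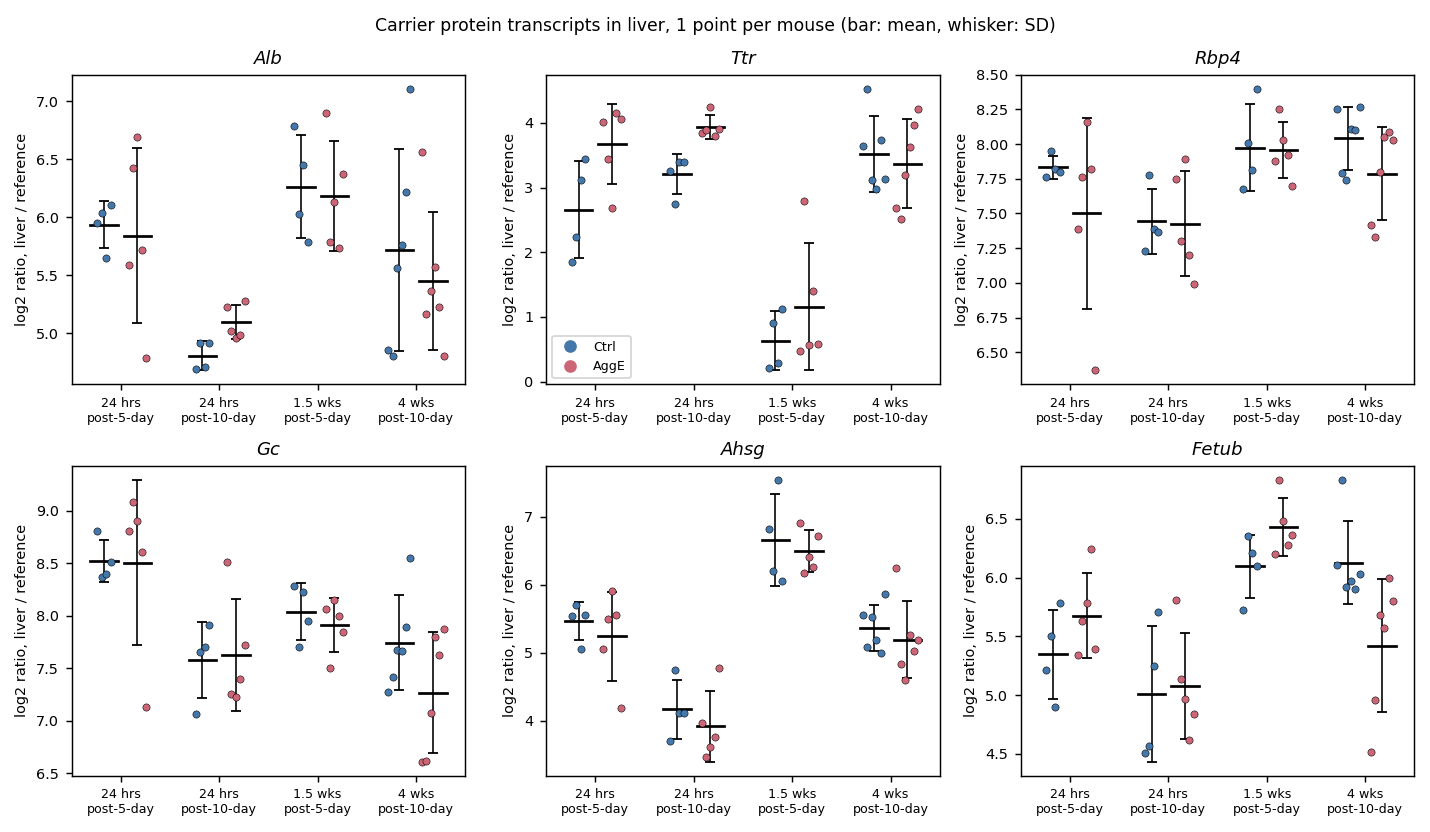
Log2 ratio of liver to reference (y axis) for each of the 6 carriers in the 4 comparisons (x axis); each point is 1 mouse, bars are group means and whiskers SDs. Ctrl and AggE points overlap in most panels, and 8 of the 9 Ttr points at 1.5 wks lie below every Ttr point of the other time points.

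At 24 hrs the median AggE minus Ctrl difference over the 6 carriers was -0.06 (log2) after 5 days, where the median of all probes was 0.00305. After 10 days it was 0.05, beside -0.00410 for all probes, and -0.05 at 1.5 wks, beside -0.00406. At 4 wks it was -0.27, beside 0.0108 for all probes, and all 6 carriers had a negative difference there, whereas 46.0% of all probes did. That count was 2 of 6 with Cy5 alone (Alb -0.01 and Fetub -0.43) and 4 of 6 with slide as a fixed block, where Alb was at 0.08 and Ahsg at 0.60. Of 9 hepatocyte markers 7 were lower at 4 wks, with a median of -0.24, and their part in the carriers' values was not tested. At the earlier time points 4, 2 and 4 of the 6 carriers had a negative difference.

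**Figure D2:**
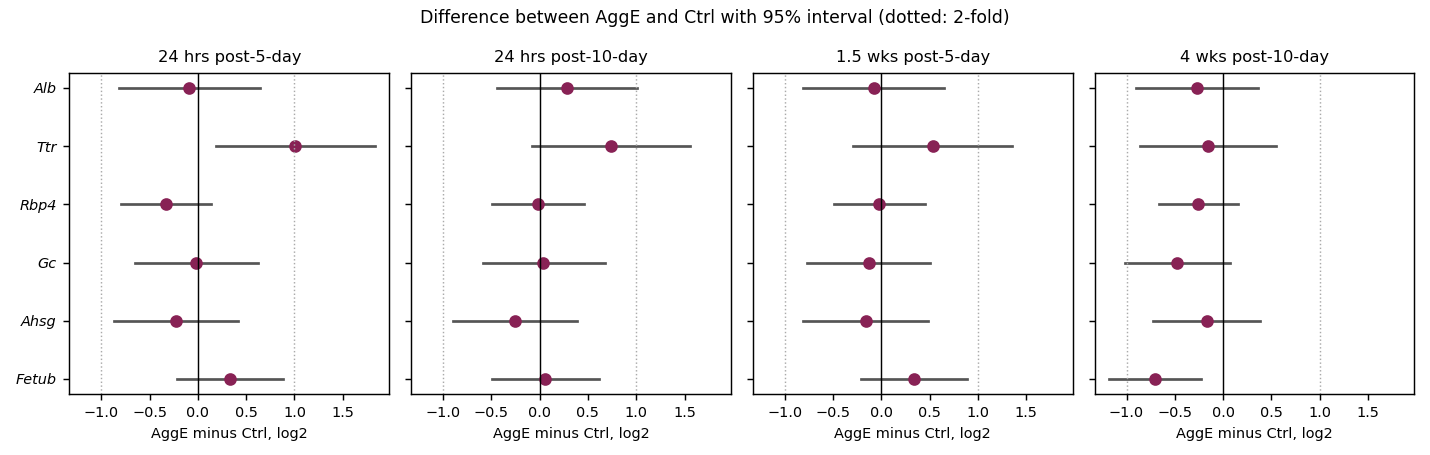
AggE minus Ctrl difference in log2 ratio (x axis) for each carrier (y axis) at the 4 time points, with 95% intervals from the limma fit; dotted lines mark 2-fold. The interval excluded 0 for Ttr at 24 hrs post-5-day stressor and for Fetub at 4 wks.

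Albumin transcripts did not pass the test at 24 hrs post-5-day stressor. The Ctrl mice read 5.95, 6.04, 5.65 and 6.11 and the AggE mice 5.59, 6.43, 6.69, 5.72 and 4.79 (log2 ratio). The AggE values surrounded the Ctrl values, 2 of them below every Ctrl mouse and 2 above. The difference was -0.09 ± 0.36 (SE), with a 95% interval of 0.567 to 1.55 for the AggE to Ctrl ratio (adjusted p = 0.943, limma), so a fall of Alb to a level under 0.567 of Ctrl lies outside the interval.

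After 10 days of exposure, the Alb values at 24 hrs were 4.69, 4.92, 4.71 and 4.92 in Ctrl and 5.23, 5.02, 4.96, 4.99 and 5.28 in AggE. All 5 AggE mice were above all 4 Ctrl mice, by a small margin, as for 0.992% of all probes. The difference was 0.28 ± 0.36 (adjusted p = 1.00, limma), a ratio of 1.22 with a 95% interval of 0.735 to 2.02. The SDs of these groups, 0.13 and 0.15, were below those of the other Alb groups, which ran from 0.20 to 0.87, while the fit uses 1 spread per probe over all groups.

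At 1.5 wks, Alb ranged from 5.79 to 6.79 in Ctrl and from 5.74 to 6.90 in AggE, with a difference of -0.08 ± 0.36 (adjusted p = 1.00, limma). At 4 wks, the lowest, median and highest values were 4.81, 5.66 and 7.11 in Ctrl and 4.81, 5.30 and 6.56 in AggE. The ranges overlapped throughout, and the difference was -0.27 ± 0.31 (adjusted p = 0.688, limma). The spread within the 6 Ctrl mice at 4 wks followed their slides: 3 of them on 1 slide averaged 5.08 and the 3 on the next slide 6.36.

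The probe for transthyretin, Ttr, had higher mean ratios in AggE than in Ctrl at 3 of the 4 time points, without passing the adjusted limit. At 24 hrs post-5-day stressor, the Ctrl mice read 1.85, 2.23, 3.12 and 3.44 and the AggE mice 4.01, 3.44, 2.68, 4.15 and 4.06. Of the 5 AggE mice, 4 were above the highest Ctrl mouse and 1 lay within the Ctrl range, and for 9.18% of all probes at least 4 AggE mice were above every Ctrl mouse. The difference was 1.01 ± 0.40, a ratio of 2.01 with a 95% interval of 1.14 to 3.55 (unadjusted p = 0.0175 and adjusted p = 0.163, limma).

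After 10 days, Ttr at 24 hrs read 3.26, 2.75, 3.40 and 3.40 in Ctrl and 3.84, 3.89, 4.25, 3.80 and 3.91 in AggE. The groups did not overlap, since all 5 AggE mice were above all 4 Ctrl mice, as for 0.992% of all probes. The difference was 0.74 ± 0.40, a ratio of 1.67 with an interval of 0.944 to 2.94 (unadjusted p = 0.0767 and adjusted p = 1.00, limma).

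At 1.5 wks, Ttr was at 0.21, 0.91, 0.29 and 1.12 in Ctrl and at 0.47, 2.79, 0.56, 1.40 and 0.58 in AggE. The high value, of AggE replicate 2, came from an array scanned on the second scan day, and without it the difference changed from 0.53 ± 0.40 (adjusted p = 1.00, limma) to 0.12. On the slide that held arrays of both groups, 1 AggE mouse stood at 0.58 and 3 Ctrl mice at 0.21 to 0.91. At 4 wks the values overlapped (Ctrl 2.97 to 4.53, AggE 2.51 to 4.21), with a difference of -0.16 ± 0.35 (adjusted p = 0.864, limma).

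The Ttr probe gave a low signal, and where it lies in the transcript was not known here, so how well it reports the Ttr transcript was not tested. Its Cy5 median intensity ran from 24 to 1172.5 over the 39 arrays against a local background of 14 to 20, and it was well above background on all 39. Its Cy3 intensity ran from 35 to 114.5 and was well above background on 6 of 39 arrays. With Cy5 alone, the 24 hr Ttr difference after 5 days was 0.90 and passed the limit (adjusted p = 0.0168, limma), beside 4.66% of all probes called with Cy5 alone, while Cy3 alone differed by 0.01 (adjusted p = 0.979, limma). With the log ratios as deposited, it was -0.34, and without normalization between arrays 0.16, and it was positive under 13 of 14 other settings. After 10 days it was positive under 11 of 14.

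Retinol-binding protein transcripts varied least of the 6 carriers within groups (SD within groups 0.36). At 24 hrs post-5-day stressor, Rbp4 read 7.76, 7.95, 7.82 and 7.80 in Ctrl and 7.39, 7.76, 8.16, 7.82 and 6.37 in AggE. The AggE mice lay on both sides of the narrow Ctrl range, 2 below and 1 above it. The difference was -0.33 ± 0.23 (adjusted p = 0.501, limma), with a log2 interval of -0.80 to 0.14.

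That difference rested on AggE replicate 5, without which it was -0.05. The same mouse was the lowest of its group for Alb, Rbp4, Ahsg and Gc, at 4.79, 6.37, 4.19 and 7.13. Without it the differences of Alb, Ahsg and Gc at this time point were 0.17, 0.03 and 0.33, all with the opposite sign. Its array was the only one of the group that lay on a slide with 1.5 wk arrays, and the part of the slide in its values was not tested.

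After 10 days, Rbp4 at 24 hrs ranged from 7.23 to 7.78 in Ctrl and from 6.99 to 7.89 in AggE, with a difference of -0.02 ± 0.23 (adjusted p = 1.00, limma). The corresponding values at 1.5 wks were 7.68 to 8.40, 7.70 to 8.25 and -0.02 ± 0.23 (adjusted p = 1.00, limma). At 4 wks, the lowest, median and highest values were 7.74, 8.11 and 8.27 in Ctrl and 7.33, 7.91 and 8.09 in AggE. Of the 6 AggE mice 2 lay below all Ctrl mice and 0 above, and the difference was -0.26 ± 0.20 (adjusted p = 0.509, limma).

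Vitamin D-binding protein transcripts did not pass the test at any time point. After 5 days, Gc read 8.81, 8.37, 8.40 and 8.51 in Ctrl and 8.81, 9.08, 8.90, 8.61 and 7.13 in AggE. Of the AggE mice 3 were above every Ctrl mouse, 1 lay within the Ctrl range and 1, replicate 5, was below it, and the difference over all mice was -0.02 ± 0.31 (adjusted p = 0.990, limma). After 10 days it was 0.04 ± 0.31, and at 1.5 wks -0.13 ± 0.31 (adjusted p = 1.00 for each, limma).

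At 4 wks, Gc had lowest, median and highest values of 7.27, 7.66 and 8.55 in Ctrl and 6.61, 7.35 and 7.87 in AggE. Of the 6 AggE mice 3 lay below all 6 Ctrl mice. The difference was -0.48 ± 0.27 (unadjusted p = 0.0845 and adjusted p = 0.325, limma), a ratio of 0.718 with an interval of 0.492 to 1.05. The reference channel moved with it: Cy3 alone differed by 0.81 (adjusted p = 0.161, limma) and Cy5 alone by 0.26 (adjusted p = 0.758, limma), a positive sign for the liver channel, and the part of the reference channel in the ratio was not tested.

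Of the fetuins, Ahsg had negative differences at all 4 time points, each smaller than its error. At 24 hrs they were -0.23 ± 0.32 after 5 days (adjusted p = 0.796) and -0.25 ± 0.32 after 10 days (adjusted p = 1.00), followed by -0.16 ± 0.32 at 1.5 wks (adjusted p = 1.00) and -0.17 ± 0.27 at 4 wks (adjusted p = 0.790, all limma). Ctrl and AggE values overlapped each time. After 10 days, for example, Ahsg at 24 hrs read 3.70, 4.74, 4.11 and 4.11 in Ctrl and 3.97, 3.46, 3.61, 3.76 and 4.78 in AggE.

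Fetub, its neighbor on the chromosome, was the carrier nearest to the limit. At 4 wks, its lowest, median and highest values were 5.90, 6.00 and 6.83 in Ctrl and 4.52, 5.62 and 6.00 in AggE. Of the 6 AggE mice, 5 were below every Ctrl mouse and 1 lay within the Ctrl range, and for 3.20% of all probes at least 5 AggE mice were below every Ctrl mouse. The difference was -0.71 ± 0.23, a ratio of 0.613 with an interval of 0.442 to 0.851 (unadjusted p = 0.00459 and adjusted p = 0.0801, limma).

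The Fetub difference at 4 wks was negative under all 15 other settings, from -1.34 to -0.32, and under the omission of each mouse, from -0.82 to -0.53. It passed the adjusted limit under 3 of the 15, without normalization between arrays and with Aquantile scaling, which gave the same ratios (-1.21, adjusted p = 0.0268, limma), and with slide as a fixed block (-1.34, adjusted p = 0.0481, limma). Under those settings 9.56% and 4.13% of all probes were called. At 4 wks 1 slide held arrays of both groups, with 1 AggE mouse, so each value given here with slide as a fixed block leans on few arrays. On that slide the AggE mouse stood at 4.52 and the 3 Ctrl mice between 5.90 and 6.03. The other carriers differed on that slide by -1.42 (Gc), -0.74 (Rbp4), -0.60 (Ttr), 0.19 (Alb) and 0.90 (Ahsg), with 1 AggE mouse and therefore no test. For Fetub, Cy5 alone differed by -0.43 (adjusted p = 0.582, limma) and Cy3 alone by 0.38 (adjusted p = 0.403, limma).

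At the other time points Fetub had positive differences, of 0.33 ± 0.27 (adjusted p = 0.596, limma) after 5 days and 0.06 ± 0.27 after 10 days at 24 hrs, and 0.34 ± 0.27 at 1.5 wks (adjusted p = 1.00 for both, limma). At 1.5 wks, the Ctrl mice read 5.72, 6.35, 6.21 and 6.10 and the AggE mice 6.20, 6.83, 6.48, 6.28 and 6.36. Of the AggE mice 3 were above all 4 Ctrl mice, and the other values interleaved.

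**Figure D3:**
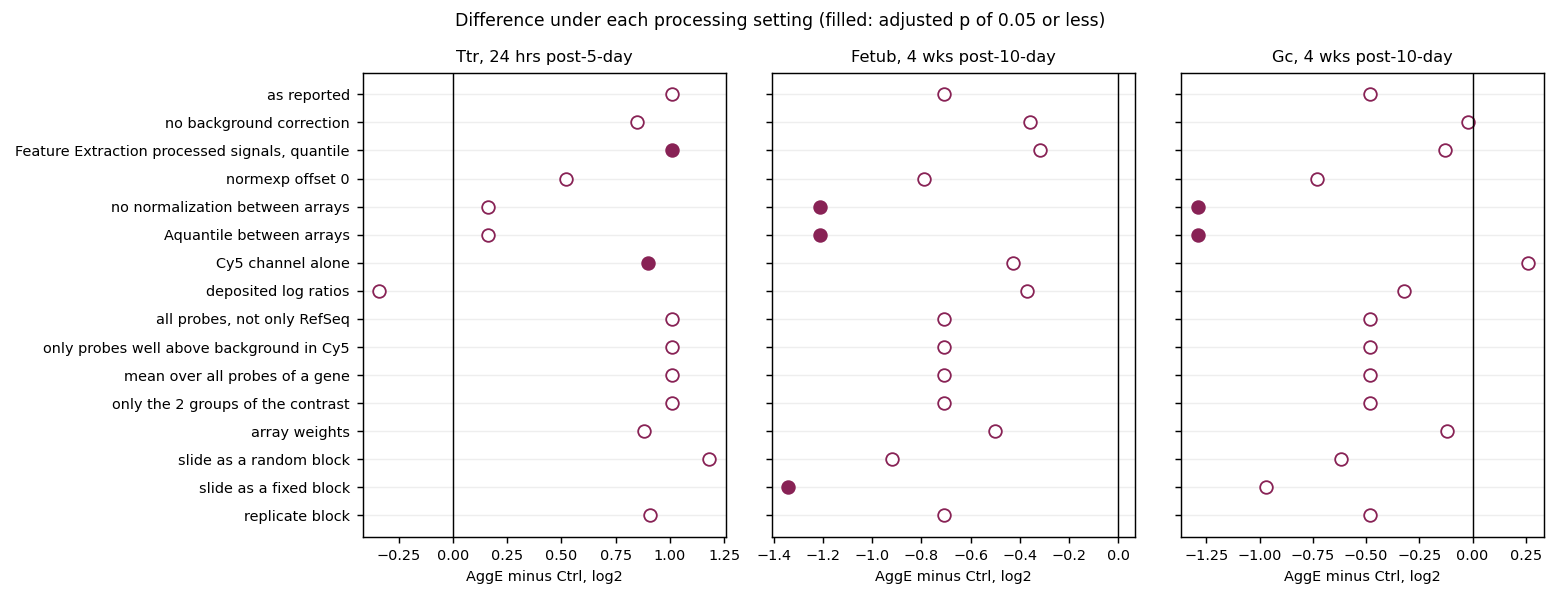
AggE minus Ctrl difference in log2 ratio (x axis) of Ttr at 24 hrs post-5-day stressor and of Fetub and Gc at 4 wks, under the reported processing and each alternative (y axis); filled points have an adjusted p of 0.05 or less. The Fetub points all lie below 0, whereas Ttr turns negative with the deposited log ratios (-0.34) and Gc positive with Cy5 alone (0.26).

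Whether the differences changed between regimens or times was tested in the same fit. Of the 6 carriers 0 passed the adjusted limit for the 5-day minus the 10-day regimen at 24 hrs (0.0270% of all probes called; 0 carriers without adjustment, beside 7.05% of probes). None passed for 24 hrs minus 1.5 wks after 5 days either (0 of 6 beside 0.0734%, and 0 beside 8.10% unadjusted). For 24 hrs minus 4 wks after 10 days the count was again 0 of 6 beside 0.0540%, with 1 carrier, Fetub, at the unadjusted limit beside 8.83% of probes. That difference of differences for Fetub was 0.77 ± 0.36 (unadjusted p = 0.0383 and adjusted p = 0.542, limma).

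Across the 8 groups, the order of the mean ratios differed between carriers. Ahsg was highest at 1.5 wks (6.65 in Ctrl and 6.49 in AggE) and lowest at 24 hrs post-10-day stressor (4.17 and 3.91). Alb had the same groups at its ends, from 6.26 in Ctrl at 1.5 wks to 4.81 in Ctrl at 24 hrs post-10-day stressor. Rbp4 spanned less, from 8.04 in Ctrl at 4 wks to 7.43 in AggE at 24 hrs post-10-day stressor.

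Ttr ran the other way, from 3.94 in AggE at 24 hrs post-10-day stressor down to 0.63 in Ctrl at 1.5 wks. Gc was highest at 24 hrs post-5-day stressor (8.52 in Ctrl), and Fetub at 1.5 wks in AggE (6.43). Among the 7 pairs of groups next to each other in these orders, the value ranges were separate for 1 pair of Alb and 1 pair of Ahsg. They overlapped for every other pair of the 6 carriers. The Alb pair was the 24 hrs post-10-day groups, where 0.992% of all probes had every AggE mouse above every Ctrl mouse. The Ahsg pair was the 1.5 wk AggE and the 24 hrs post-5-day Ctrl mice, for which the share of all probes was not computed. The orders were set by these same means, so the counts are descriptions. Time points lay mostly on different slides, so time and slide cannot be told apart in these orders.

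Signal moved with time point as well. The Alb probe reached Cy5 intensities of 3013 to 11446.5 in Ctrl and 6466 to 29360.5 in AggE at 1.5 wks, but 43426 to 140717 and 81154 to 152746 at 4 wks. No Cy5 spot of the 6 carriers was saturated (0 spots). The reference RNA gave Alb intensities of 1048.5 to 12162 in Cy3.

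After subtraction of group means, the carriers did not form 1 block over the 39 mice. Alb and Ahsg varied together (Pearson r = 0.65), as did Rbp4 and Gc (r = 0.57), whereas Alb and Ttr varied in opposite directions (r = -0.57). The neighbors Ahsg and Fetub had r = -0.12, and Alb and Gc, on the same chromosome, had r = 0.46. These correlations are descriptions, since arrays share slides and a reference channel. With Cy5 alone they were 0.55 for Alb with Ahsg, 0.05 for Rbp4 with Gc, 0.03 for Alb with Ttr and 0.49 for Ahsg with Fetub.

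Among 3210 genes well above background on all 39 arrays, up to 3 are named for each carrier, those whose pattern over mice within groups was most like it by Pearson r. For Alb these were Apoc1, an apolipoprotein (r = 0.81), Rack1 (0.78) and Cetn3 (0.77). For Ttr they were Bhmt2, an enzyme of methionine metabolism (0.85), Tmem25 (0.81) and the amine oxidase Maob (0.81).

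The nearest genes to Rbp4 were Mug1, a protease inhibitor of plasma (0.76), the fatty acid-binding protein Fabp1 (0.75) and Afm, the albumin-related vitamin E carrier (0.73). For Gc they were the adhesion protein Vtn (0.81), coagulation factor F10 (0.81) and Cyp2d26 (0.80). Ahsg was nearest to Serpina3m (0.83) and Pabpc4 (0.74), and Fetub to complement factor B, Cfb (0.78), Anpep (0.72) and the glucagon receptor Gcgr (0.72). The median r of a carrier with all 3210 genes lay between -0.04 and 0.12.

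Other plasma carriers and negative acute phase proteins were followed as a list of 14 genes, all measured. Of these, 0 were called at 24 hrs after 5 days, at 24 hrs after 10 days or at 1.5 wks, with medians of 0.14, 0.07 and 0.24. With p unadjusted, 2 were lower after 5 days, beside 17.9% of all probes. After 10 days 0 passed, beside 2.92%, and at 1.5 wks 1 was higher, beside 2.39%. At 4 wks 1 of 14 was called, beside 3.20% of all probes, and with p unadjusted 2 were higher and 4 lower, beside 20.2% of all probes. The called gene was Pon1, the antioxidant enzyme of high-density lipoprotein, which fell by 1.32 on the log2 scale (SE 0.30, adjusted p = 0.0185, limma), with a list median of -0.25. The 2 higher ones, named after their values were seen, were Lcat, the enzyme that esterifies plasma cholesterol (1.24, adjusted p = 0.0702), and Igfals, a carrier subunit for insulin-like growth factors (0.93, adjusted p = 0.0817, limma). Ctrl values of Pon1 ran from 6.95 to 8.42 and AggE values from 5.19 to 7.11. The Pon1 call held under 7 of 15 other settings and under 10 of 12 omissions of a mouse, and was lost without AggE replicate 2 (adjusted p = 0.0715) or 3 (adjusted p = 0.0693, limma). It was also lost with slide as a random block (-1.18, adjusted p = 0.133) or a fixed block (-1.12, adjusted p = 0.222, limma). Over the 15 other settings the Pon1 difference ran from -2.05 to -0.26. It was -0.34 with the deposited log ratios and -0.39 with Cy5 alone.

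Receptors and enzymes that handle the carriers or their cargo were a list of 11 genes. At 4 wks 2 of 11 were called, both higher in AggE, beside 3.20% of all probes, with a list median of 0.15. With p unadjusted 4 were higher and 0 lower, beside 20.2% of all probes. Fcgrt, the neonatal Fc receptor that recycles albumin and IgG, ranged from -0.96 to 0.85 in Ctrl and from -0.49 to 1.49 in AggE. Its difference was 1.09 ± 0.26 (adjusted p = 0.0234, limma), and it was 0.11 with slide as a fixed block and 0.72 with slide as a random block (adjusted p = 0.903 and 0.226, limma), both of which ended the call. Cyp27a1, a sterol hydroxylase that also acts on vitamin D, differed by 1.06 ± 0.31 (adjusted p = 0.0489, limma), and by 0.17 with slide as a fixed block and 0.74 with slide as a random block (adjusted p = 0.878 and 0.306, limma). The Fcgrt call held under 7 of 15 other settings and that of Cyp27a1 under 3 of 15. The Fcgrt call was lost without AggE replicate 2 or 3 or without Ctrl replicate 3, 4 or 5 (adjusted p of 0.0503 to 0.0788), and that of Cyp27a1 was kept only without AggE replicate 1, Ctrl replicate 1 or Ctrl replicate 2 (3 of 12).

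**Figure D4:**
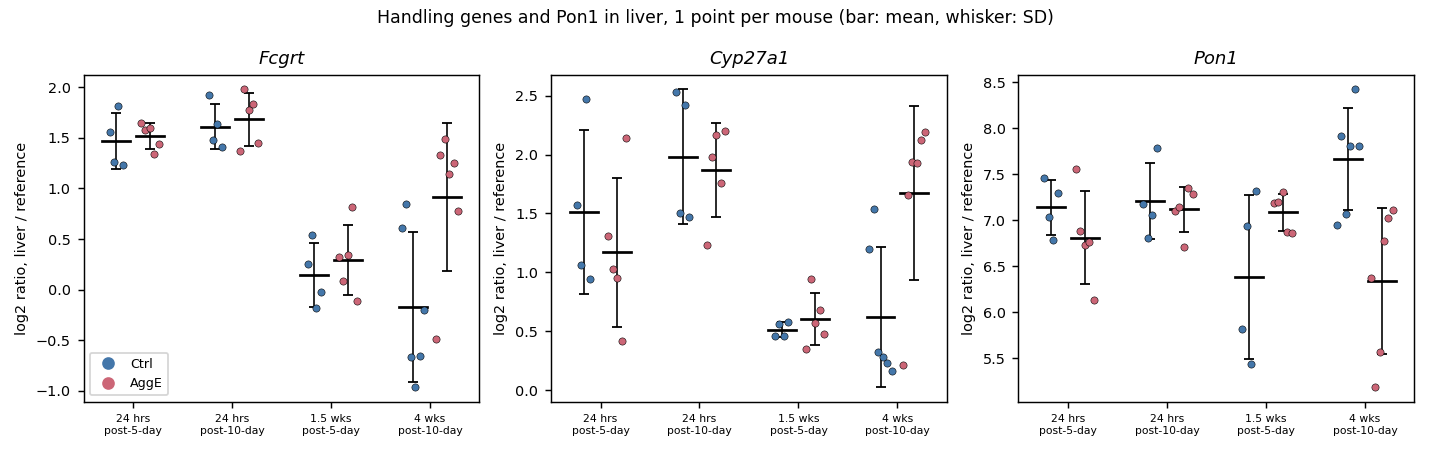
Log2 ratio of liver to reference (y axis) of Fcgrt, Cyp27a1 and Pon1 in the 4 comparisons (x axis); each point is 1 mouse, bars are means and whiskers SDs. At 4 wks AggE and Ctrl mice overlap for all 3 genes.

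Of 13 liver transcription factors, including Hnf4a, the C/EBP and FOXA factors and Stat3, 0 were called at any of the 4 time points. With p unadjusted, 1 was lower at 24 hrs after 5 days, beside 17.9% of all probes, and 0 passed after 10 days, beside 2.92%. At 1.5 wks 1 was higher, beside 2.39% of all probes, and at 4 wks 2 were lower, beside 20.2%. The list medians were 0.06, 0.02, 0.09 and -0.22 in the same order.

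Genes of positive acute phase proteins were measured on the same arrays, and no test set them against the carriers. Of 23 such genes, 9 were called at 24 hrs after 5 days, beside 3.69% of all probes, and 5 after 10 days, beside 0.0811%, all higher, with list medians of 0.71 and 0.38. The other members did not pass, and negative differences were found for 3 of 23 after 5 days and 4 of 23 after 10 days, namely Hp, haptoglobin (-0.17 and -0.35), Hamp, the iron hormone hepcidin (-0.29 and -0.39), the fibrinogen chain Fgb (-0.23 and -0.05) and, after 10 days, the chain Fgg (-0.09). The list was known from earlier results of these arrays to hold genes that rise, so its direction is no independent evidence. Saa3 differed by 4.16 ± 0.38 after 5 days (adjusted p = 2.66e-08) and by 3.31 ± 0.38 after 10 days (adjusted p = 2.12e-06, limma). Lcn2, an iron-scavenging lipocalin, was well above background on 0 of 4 Ctrl arrays of either regimen, so its difference is a bound from the Cy5 channel after loess and Aquantile scaling, open to dye bias since no dyes were swapped. AggE livers held at least 6.27-fold higher Lcn2 signal after 5 days and at least 5.28-fold higher after 10 days. These bounds were not tested. The log2 ratio of Lcn2 in the reported processing had adjusted p = 3.28e-08 after 5 days and 2.12e-06 after 10 days (limma). After 10 days the differences of Saa1 and Apcs, the serum amyloid P component, were 3.60 ± 0.42 (adjusted p = 2.89e-06) and 1.85 ± 0.25 (adjusted p = 6.77e-05). After 5 days Saa1 differed by 3.72 ± 0.42 (adjusted p = 1.39e-06) and Apcs by 2.25 ± 0.25 (adjusted p = 1.17e-06, limma). The Apcs call held under 12 of 14 other settings after 5 days and 9 of 14 after 10 days. In the same livers, the 95% intervals of Alb, Rbp4, Gc, Ahsg and Fetub at 24 hrs lay between 0.537 and 2.02 as ratios, while those of Ttr reached from 1.14 to 3.55 after 5 days and from 0.944 to 2.94 after 10 days.

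At 1.5 wks 0 of the 23 positive acute phase genes were called, beside 0.00% of all probes (0 with p unadjusted, beside 2.39%). At 4 wks 3 were called, beside 3.20% of all probes, and with p unadjusted 4 were higher and 3 lower, beside 20.2%. The called genes were Serpina3n and Crp, higher (1.32 ± 0.35, adjusted p = 0.0341, and 0.67 ± 0.18, adjusted p = 0.0381), and Saa4, the constitutive serum amyloid, lower (-1.09 ± 0.23, adjusted p = 0.0128, limma). Serpina3n was well above background on 3 of 6 Ctrl and 5 of 6 AggE arrays, so its difference depends in part on values near background. The calls of Serpina3n, Crp and Saa4 held under 5, 5 and 7 of 15 other settings, and under 4, 4 and 12 of 12 omissions of a mouse. Over those settings the differences ran from 0.43 to 2.47 for Serpina3n, from 0.11 to 1.09 for Crp and from -1.73 to -0.02 for Saa4. Crp was at 0.11 without normalization between arrays, and Saa4 at -0.02 with the deposited log ratios. With slide as a random block all 3 were lost, at 1.01 for Serpina3n (adjusted p = 0.233), 0.77 for Crp (adjusted p = 0.0893) and -1.23 for Saa4 (adjusted p = 0.0611, limma). With slide as a fixed block Serpina3n was at 0.43 (adjusted p = 0.725, limma), while Crp and Saa4 passed the limit.

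Markers of hepatocytes and of other cells were set beside these values. At 1.5 wks all 9 hepatocyte markers were higher in AggE, with a median of 0.83, while 51.9% of all probes were lower. Of the 9, 0 were called, beside 0.00% of all probes, and 4 passed with p unadjusted, beside 2.39%. Their mean log2 ratio ran from 4.11 to 6.06 in Ctrl and from 5.23 to 6.71 in AggE mice. At 4 wks 7 of 9 were lower, with a median of -0.24, beside 46.0% of all probes. The 1 called there, beside 3.20% of all probes, was Fabp1 (-1.02 ± 0.30, adjusted p = 0.0490, limma). At 24 hrs 0 of 9 were called in either regimen, beside 3.69% and 0.0811% of all probes after 5 and 10 days. With p unadjusted 0 of 9 passed, beside 17.9% and 2.92%, and the medians were -0.04 and -0.02. Of the 6 skeletal muscle, 5 pancreas, 5 adipose, 6 leukocyte, 4 erythroid, 5 biliary and 8 endothelial and stellate markers measured, 3 were called at some time point: the biliary markers Spp1 (1.28) and Krt7 (lower, but not well above background on any of those 9 arrays) at 24 hrs post-5-day stressor and the adipose marker Lep (0.30) at 4 wks. At 24 hrs post-5-day stressor 3.69% of all probes were called, and at 4 wks 3.20%. The part of cell content in the carriers' values was not tested.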

How the data were processed

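The authors deposited, as scanner output of Agilent Feature Extraction (11.5.1.1 per the file headers), spot and local background medians of intensity in each channel, processed intensity and quality flags, and separately log10 ratios of the processed signals. The carriers and the gene lists were chosen with earlier results of these data known. Median intensities were background-corrected (normexp, offset 50), loess-normalized within arrays and quantile-normalized between arrays, in the order of steps of the study's methods (normexp and its offset were chosen here), with limma 3.58.1 in R 4.3.3 and statmod 1.5.0, so a difference is relative to the other probes of the array. Outlier spots (0.295% to 1.46% per array) were left out, and no carrier value was missing. One fit held 8 group means over 39 arrays; its moderated test was adjusted by Benjamini-Hochberg over 25903 RefSeq probes, and a probe was called at 0.05 or less. The fit was tested on simulated data. A list gene entered by its brightest probe; of each list other than the carriers, at most 4 called genes per comparison with the smallest p are named, and the 3 genes most like each carrier. Some results under this rule, with the 24 hr and 1.5 wk counts of the handling list, are not reported here. No dyes were swapped. Replicates are separate mice per the labels, and their number limits the precision. Names and promoter sequences came from RefSeq (GRCm38.p6). Same-numbered replicates did not pair: their deviations correlated from -0.42 to 0.50.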

Additional observations from a re-analysis of the deposited data

Results flagged for a closer look

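Among 48 sets of values (6 carriers in 8 groups), 3 held a mouse whose gap to the nearest other mouse took most of the group's range, by Dixon's criterion, which flags about 1 in 20 groups by chance. After 5 days, Gc in AggE replicate 5 at 24 hrs was 7.13, with the nearest mouse at 8.61. Fetub in Ctrl replicate 2 at 4 wks post-10-day stressor was 6.83, with the nearest mouse at 6.11. Ttr in AggE replicate 3 at 24 hrs post-10-day stressor was 4.25, with the nearest mouse at 3.91.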

How the results depend on the processing

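The count of carriers called was 0 of 6 in the reported processing at each time point and 0 under every omission of a single mouse. After 5 days the 24 hr count was 1 (Ttr) with the processed signals (1.93% of all probes called), with Cy5 alone (4.66%), and with a limit of 2-fold and p of 0.05 or less, taken here without adjustment (0.228%). At 4 wks it was 2 (Fetub and Gc) without normalization between arrays or with Aquantile (9.56% of all probes called with each), and 1 (Fetub) with slide as a fixed block (4.13%). At 24 hrs post-10-day stressor and 1.5 wks it stayed 0 under each alternative. With the replicate number as a block, it was 0 at all 4 time points, and no carrier call changed. With slide as a random block the share of all probes called was 0.0463% at 24 hrs post-5-day stressor and 0.139% at 4 wks, and without normalization between arrays it was 0.0888% at 24 hrs post-5-day stressor. Omitting a mouse moved it from 3.69% to between 1.58% and 3.82% at 24 hrs post-5-day stressor and from 3.20% to between 0.502% (without AggE replicate 3) and 8.31% (without AggE replicate 1) at 4 wks. Precision is limited by the number of mice and, for Ttr, by a Cy3 signal near background on most arrays.

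Differences that changed sign, none of them called in the reported processing, are given as log2 values, and the cause was not tested. Without background correction these were Gc 0.29 (24 hrs post-5-day), Fetub -0.10 and Gc -0.03 (24 hrs post-10-day), Ttr 0.22 and Rbp4 0.12 (4 wks), Gc 0.32 (5 minus 10 days at 24 hrs), Alb 0.05, Ahsg 0.12 and Fetub 0.02 (24 hrs minus 1.5 wks), Rbp4 -0.13 and Gc -0.01 (24 hrs minus 4 wks). With the processed signals these were Fetub -0.08 (24 hrs post-5-day), Ttr -0.26, Fetub -0.12 and Gc -0.12 (24 hrs post-10-day), Ttr 0.02, Rbp4 0.01 and Ahsg 0.00 (4 wks), Ahsg -0.09 and Gc 0.07 (5 minus 10 days at 24 hrs), Ttr -0.08 and Ahsg 0.04 (24 hrs minus 1.5 wks), Ttr -0.28 and Rbp4 -0.21 (24 hrs minus 4 wks). With an offset of 0 these were Ttr -0.06, Fetub -0.14 and Gc -0.26 (24 hrs post-10-day). Without normalization between arrays, and equally with Aquantile, these were Alb 0.05, Ahsg 0.12 and Fetub -0.35 (24 hrs post-5-day), Fetub -0.46 and Gc -0.63 (24 hrs post-10-day), Alb 0.18, Ttr -0.39, Ahsg 0.40 and Gc -0.02 (24 hrs minus 1.5 wks), Ahsg 0.58 (24 hrs minus 4 wks). With Cy5 alone these were Alb 0.41, Ahsg 0.48 and Gc 0.13 (24 hrs post-5-day), Rbp4 0.07 and Fetub -0.11 (24 hrs post-10-day), Alb 0.98, Rbp4 0.36 and Ahsg 0.86 (1.5 wks), Ttr 0.25, Rbp4 0.20, Ahsg 0.05 and Gc 0.26 (4 wks), Alb 0.39 and Gc 0.13 (5 minus 10 days at 24 hrs), Rbp4 -0.13 and Gc -0.25 (24 hrs minus 4 wks). With the deposited log ratios these were Alb 0.09, Ttr -0.34, Ahsg 0.05 and Fetub -0.17 (24 hrs post-5-day), Ttr -0.43, Fetub -0.06 and Gc -0.06 (24 hrs post-10-day), Ttr 0.08 (4 wks). With array weights these were Alb 0.16 and Gc 0.22 (24 hrs post-5-day), Rbp4 0.04, Fetub -0.07 and Gc -0.18 (24 hrs post-10-day), Rbp4 0.01 (1.5 wks), Ttr 0.07 (4 wks). With slide as a random block these were Alb 0.03 and Ahsg 0.06 (1.5 wks), Ahsg 0.09 (4 wks). With slide as a fixed block these were Alb 0.06 and Ahsg 0.16 (1.5 wks), Alb 0.08 and Ahsg 0.60 (4 wks). With the replicate block, though same-numbered mice did not pair, these were Alb 0.17, Ahsg 0.03 and Gc 0.33 (24 hrs post-5-day), Rbp4 0.09 (24 hrs post-10-day), Rbp4 0.05 (1.5 wks). On omission of 1 mouse at a time, signs also changed. At 24 hrs post-5-day the ranges were Gc -0.16 to 0.33, Alb -0.30 to 0.17, Ahsg -0.39 to 0.03. At 24 hrs post-10-day the ranges were Fetub -0.12 to 0.30, Gc -0.18 to 0.15, Rbp4 -0.13 to 0.10. At 1.5 wks the ranges were Rbp4 -0.12 to 0.12, Alb -0.26 to 0.10, Ahsg -0.36 to 0.13. At 4 wks the ranges were Ttr -0.32 to 0.05, Alb -0.49 to 0.01.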
